A study of Oryctolagus cuniculus with 12 samples.

Results

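Enzymes that oxidise and conjugate foreign compounds were followed in the rabbit aorta upstream of a coarctation. The members are the genes whose symbol in the RefSeq gene table begins with CYP and a digit, UGT, SULT, FMO, GST, or NAT and a digit. The rule uses symbols and no measured values. The array names 36 such genes by a RefSeq accession, of 1264 gene symbols that have a probe, and these 36 genes are read by 83 of 43603 probes. Most rabbit probes carry no symbol, so enzymes that are not listed here may be on the array without a name.

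The study used 12 male New Zealand white rabbits harvested at 32 weeks of age, 4 in each of 3 groups. Control rabbits were non-experimental and had no sham operation. CoA rabbits received a permanent silk suture around the descending aorta at about 10 weeks of age, which imposed a 20 mmHg blood pressure (BP) gradient until harvest. Corrected rabbits received a degradable Vicryl suture under the same gradient, and its loss brought the diameter near normal with modest residual narrowing. A ring of about 4 mm was taken from the thoracic aorta above the suture, and RNA from each rabbit was labeled with Cy3 and hybridized to its own Agilent array. Suture and operation go together in both surgical groups, so the Control comparisons hold the effect of both. As the study did, the array of a Corrected rabbit was set aside. The tests therefore hold 4 Control, 4 CoA and 3 Corrected arrays, without Corrected replicate 3.

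Drug metabolism proceeds in steps. Cytochrome P450 (CYP) and flavin-containing monooxygenase (FMO) enzymes add or expose a polar group, and UDP-glucuronosyltransferases (UGT), sulfotransferases (SULT) and glutathione S-transferases (GST) attach a glucuronide, a sulfate or glutathione so that the product can be excreted. The liver is the main site, but vessels also express P450 enzymes that turn arachidonic acid into vasoactive lipids, and several P450 members act on steroids and bile acids rather than on drugs.

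Between 69.7% and 77.7% of spots were well above background on the Control arrays, 55.8% to 69.7% on the CoA arrays and 61.8% to 68.5% on the Corrected arrays that were tested. All 4 CoA arrays shared a scan that held no other group, so scan and CoA cannot be told apart. Corrected replicate 2 was scanned together with Control replicates 1, 2 and 4. The other Corrected arrays shared a scan that held no other group, and Control replicate 3 was scanned alone. Scan and Corrected can therefore be told apart only through Corrected replicate 2. Control replicates 3 and 4 differed from each other by a robust SD of 0.144 on the log2 scale over 8463 brighter probes, against 0.284 to 0.963 for the other pairs of arrays. The defining smooth muscle markers were present on every array, with log2 signals of ACTA2, smooth muscle actin, from 13.54 to 16.40. Values below are log2 signals after quantile normalization, in which 1 unit is a 2-fold difference. They compare arrays for the same probe and do not rank different genes.

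Of the 36 genes, 31 were detected on at least 8 of 12 arrays and were tested, and 23 were detected on all 12. The 31 were 18 of 20 CYP genes, all 5 FMO genes, 4 of 5 SULT genes, 2 of 4 UGT genes, GSTM2 and NAT10. Below the filter were CYP2A11 with detection on 1 array, CYP2C14 on 7, SULT1C2 on 2, UGT2B14 on 0 and UGT2B16 on 4. The scatter of the 31 genes within groups had a median residual SD of 0.64 on the log2 scale, against 0.57 over the 27283 probes tested. It was 0.30 for GSTM2, and it reached 1.54 for CYP2C4 and SULT3A1 and 1.43 for SULT2B1. The highest value of a gene fell on CoA replicate 2 for 6 of the 31 genes and on Corrected replicate 4 for 5. Over all probes these arrays held 24.9% and 15.6% of the highest values.

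**Figure D1:**
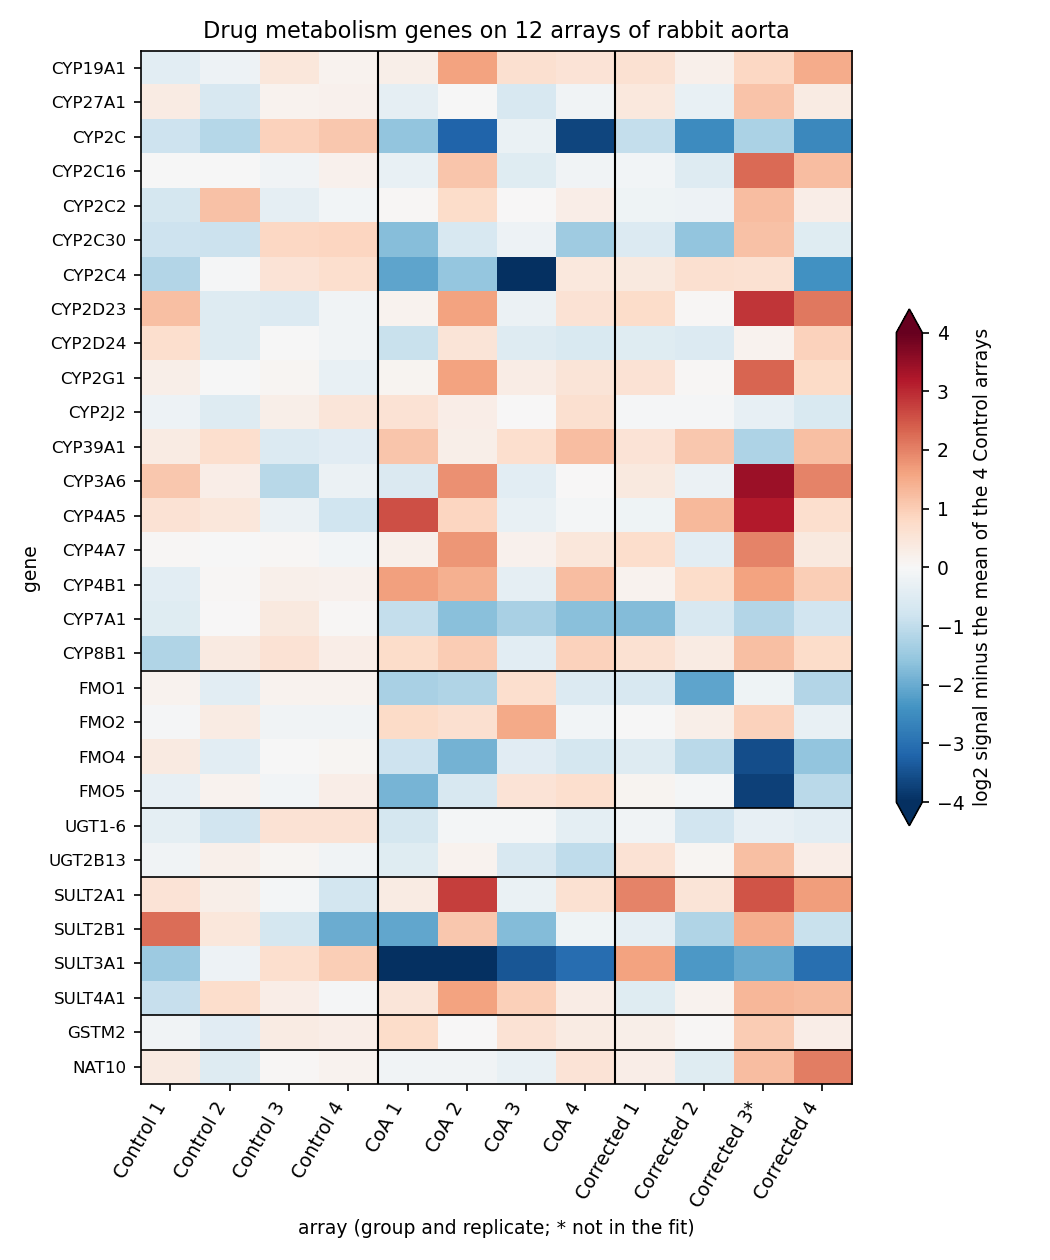
Log2 signal of 30 tested genes (rows, ordered by family) on 12 arrays (columns, 4 per group), as the difference from the mean of the 4 Control arrays of that gene; red is higher, blue is lower, and colours stop at 4 units. The SULT3A1 row is blue on all 4 CoA arrays, the CYP7A1 row is blue on all CoA and Corrected arrays, and the GSTM2 row stays pale.

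The comparison of CoA with Control asks what persistent high BP upstream of the suture goes with. The genes that passed the criterion, a 2-fold change at an unadjusted p under 0.05, were all lower in CoA. They were SULT3A1, CYP2C and CYP7A1. These are 3 of 31 genes, or 9.68%, while 8.81% of all probes tested passed (5.22% lower and 3.59% higher). With Benjamini-Hochberg adjustment in limma 0 of 31 genes passed, and 6 genes, or 19.4%, had an unadjusted p under 0.05, against 14.2% of all probes. The other 3 of these 6 stayed under 2-fold: CYP39A1 with a log2 difference of 0.81, CYP4B1 with 0.99 and FMO4 with -0.97. The smallest adjusted p of a gene was 0.217, for CYP7A1. The groups did not overlap for CYP4A7, CYP7A1, FMO4 and SULT3A1, which is 4 of 31 genes or 12.9%, against 10.2% of all probes. The genes had no common direction. The median log2 difference was 0.05 over the genes and 0.06 over all probes, and 16 of 31 were above 0, against 54.5% of all probes. Their median absolute difference was 0.63, against 0.40 over all probes.

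The comparison of Corrected with Control asks what remained after the suture was lost. CYP2C, CYP7A1, FMO1 and FMO4 passed the 2-fold criterion, all lower in Corrected. These 4 of 31 genes make 12.9%, against 5.39% of all probes (2.98% lower and 2.41% higher). In limma 0 passed the adjusted threshold, 5 genes, or 16.1%, had an unadjusted p under 0.05, against 8.35% of all probes, and the smallest adjusted p was 0.465. The fifth gene was CYP39A1, higher by 0.94. The groups did not overlap for CYP7A1, FMO1 and FMO4, which is 3 of 31 or 9.68%, against 8.85% of all probes. The median log2 difference was 0.16 over the genes and 0.03 over all probes, with 16 of 31 genes above 0, against 52% of all probes. Their median absolute difference was 0.56, against 0.35. Both comparisons use the same Control arrays, so the names they share, CYP2C and CYP7A1, are not independent of each other.

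CoA and Corrected differed by the 2-fold criterion in SULT3A1 alone, lower in CoA, which is 1 of 31 genes or 3.23%, against 2.77% of all probes (1.33% lower and 1.44% higher). In limma 0 genes passed adjustment and 2, SULT3A1 and UGT2B13, had an unadjusted p under 0.05, or 6.45% against 4.31% of all probes. The groups did not overlap for SULT3A1 and CYP2J2, or 6.45% of the genes, against 4.24% of all probes. The median difference was 0.00 over the genes and 0.02 over all probes, where 52% were above 0.

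**Figure D2:**
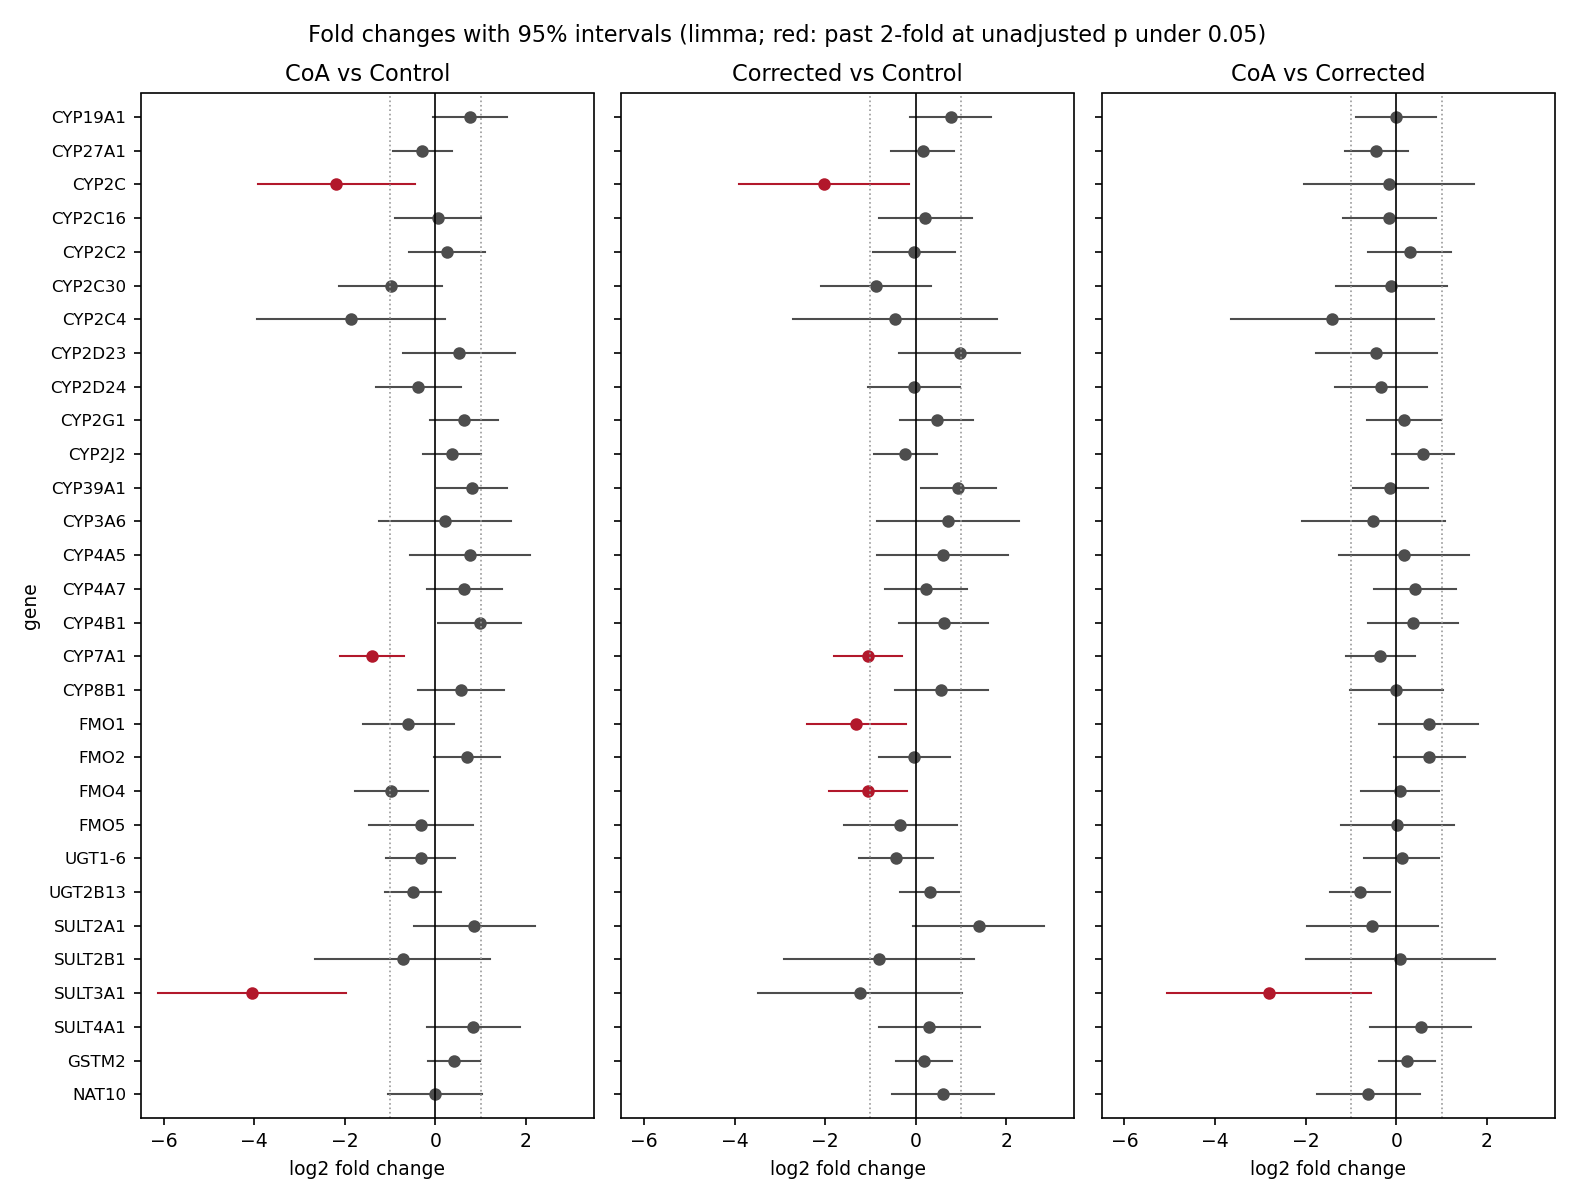
Log2 fold change (points, x axis) with its 95% interval (bars, limma with moderated variances) for 30 tested genes in the 3 comparisons; dotted lines mark 2-fold, and red marks genes past 2-fold at an unadjusted p under 0.05. All red points lie left of 0, and the widest intervals are those of SULT3A1, CYP2C4 and SULT2B1.

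**Figure D3:**
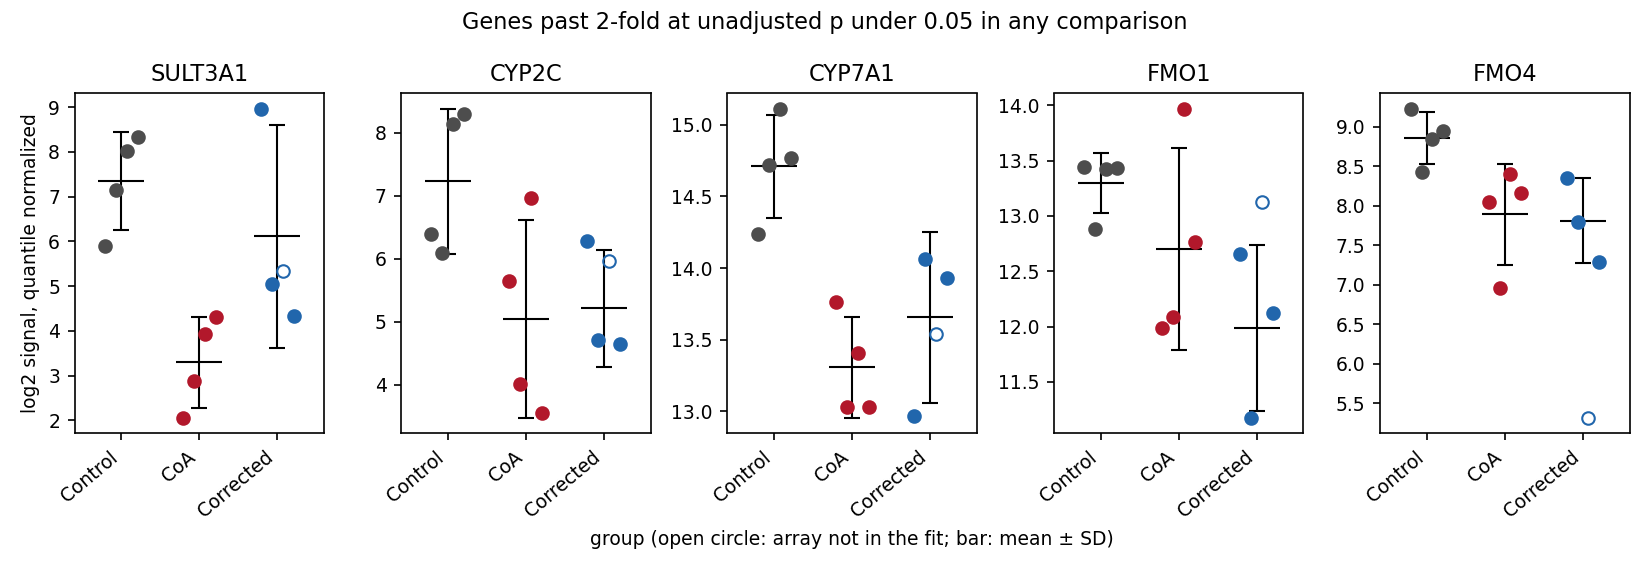
Log2 signal (y axis, quantile normalized; the scale differs between panels) of the 5 genes past 2-fold at an unadjusted p under 0.05 in any comparison, by group; each point is an array, bars are mean ± SD, and the open circle is Corrected replicate 3, which the tests did not use. Control and CoA points are separate for SULT3A1, CYP7A1 and FMO4, while for CYP2C and FMO1 they overlap.

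Among the P450 enzymes that act on foreign compounds, the probe named CYP2C was lower in both surgical groups. It read 6.40, 6.09, 8.14 and 8.29 in Control, 5.65, 4.02, 6.97 and 3.55 in CoA and 6.27, 4.71 and 4.65 in Corrected. Control was split into a pair near 6 and a pair near 8, and CoA replicate 3 and Corrected replicate 1 lay within the Control range. CoA was lower than Control by 2.18 (standard error, SE, 0.79, adjusted p = 0.292 in limma, exact permutation p = 0.114) and Corrected by 2.02 (SE 0.85, adjusted p = 0.574 in limma, exact permutation p = 0.114). The upper pair is Control replicates 3 and 4, the most similar arrays of all, and the criterion was no longer met in either comparison when they were averaged into 1 sample. It was also lost without Control replicate 3 or 4, for CoA without CoA replicate 2 or 4, and for Corrected without Corrected replicate 2 or 4. With each array left out in turn, the CoA difference lay between -2.82 and -1.68 and that of Corrected between -2.55 and -1.66. On the scan that Corrected replicate 2 shared with Control replicates 1, 2 and 4, the difference was -2.21, with a single Corrected array.

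By their brightest probes the other CYP2C genes differed in direction in CoA. CYP2C30 and CYP2C4 were lower in CoA by 0.99 and 1.87 without passing the criterion, with 95% intervals of -2.12 to 0.14 and -3.94 to 0.21. CYP2C16 and CYP2C2 differed by 0.05 and 0.26. However, 4 of 5 CYP2C16 probes were below 0, the third by signal at -1.17 and past the criterion, and the second CYP2C2 probe gave -0.30. Corrected means of CYP2C30, CYP2C4 and CYP2C2 were 7.35, 5.07 and 4.58, against 8.23, 5.53 and 4.61 in Control. CYP2C4 was the most scattered, from 1.29 to 5.95 within CoA, and both of its probes gave this spread. CYP2C16 averaged 8.33 ± 0.13 (SD, n = 4) in Control, 8.38 ± 0.73 (n = 4) in CoA and 8.54 ± 0.93 (n = 3) in Corrected. CYP2C14, below the filter, averaged 4.15, 3.97 and 3.47. These subfamily members resemble each other closely, and whether their probes bind a single transcript was not tested.

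The remaining drug oxidising P450 genes overlapped between groups. CYP2D23 averaged 7.23, 7.76 and 8.20 and CYP2D24 5.76, 5.38 and 5.72 in Control, CoA and Corrected. CYP3A6, a rabbit member of the subfamily that oxidises many drugs, averaged 6.55 ± 0.92, 6.76 ± 1.11 and 7.26 ± 1.15, and its largest difference, 0.72 between Corrected and Control, had a 95% interval of -0.85 to 2.29. CYP2G1, known from olfactory tissue, averaged 4.74, 5.37 and 5.20. CYP2A11 was detected on CoA replicate 3 alone, at 4.50. These intervals do not show that the groups are alike.

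The P450 enzymes of fatty acids had higher means in CoA than in Control by their brightest probes, but none passed the criterion. The second probes of CYP4A5 and CYP4A7 gave -0.27 and -0.06. CYP4B1, which hydroxylates fatty acids and activates some lung toxicants, read 7.99, 8.45, 8.61 and 8.59 in Control and 10.05, 9.82, 8.06 and 9.65 in CoA. A single CoA array lay among the Controls, and the difference was 0.99 (SE 0.42, adjusted p = 0.331 in limma, exact permutation p = 0.114). In Corrected it was 8.56, 9.13 and 9.39, higher than Control by 0.61 (95% interval -0.37 to 1.60). CYP4A7 averaged 4.84 ± 0.08 in Control and 5.48 ± 0.75 in CoA without overlap (5.06 ± 0.58 in Corrected), with a difference of 0.64 and an adjusted p of 0.448 in limma. CoA replicate 2, at 6.59, stood above the other CoA arrays, at 5.02 to 5.28. CYP4A5, likewise a fatty acid hydroxylase, averaged 9.05, 9.82 and 9.64, with its highest tested value of 11.62 on CoA replicate 1.

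CYP2J2, which makes vasodilator epoxides from arachidonic acid, was measured evenly on all arrays. It read 10.94, 10.60, 11.34 and 11.62 in Control, 11.70, 11.38, 11.15 and 11.76 in CoA and 11.08, 11.09 and 10.52 in Corrected. All CoA arrays lay above all Corrected arrays, with a difference of 0.60 (95% interval -0.09 to 1.29, exact permutation p = 0.057, the smallest possible). A second probe gave 0.62. CoA minus Control was 0.37, with an interval of -0.26 to 1.01.

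Several P450 members make or break down sterols. CYP7A1, the rate-limiting enzyme of bile acid synthesis in liver, read 14.23, 14.72, 15.11 and 14.77 in Control, 13.77, 13.03, 13.41 and 13.03 in CoA and 12.97, 14.07 and 13.93 in Corrected. Every Control array lay above every array of the surgical groups. The difference was -1.40 for CoA (SE 0.32, adjusted p = 0.217 in limma, exact permutation p = 0.029, the smallest possible) and -1.05 for Corrected (SE 0.34, adjusted p = 0.465 in limma, exact permutation p = 0.057, the smallest possible). On the shared scan, Corrected replicate 2 was lower than the Controls by 0.51. The Corrected call was also lost without Control replicate 3 or Corrected replicate 1, with -0.71 as the smallest difference.

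This value of CYP7A1 belongs to a single probe. The other 3 probes with this name were detected on 8, 2 and 2 of 12 arrays, and they differed between CoA and Control by -0.20, 0.44 and -0.77, none past the criterion. Of the 7 hepatocyte markers with a probe, ALB (albumin), HP (haptoglobin), TF (transferrin) and HPX (hemopexin) were detected on all 12 arrays, CRP on 6, coagulation factor F9 on 4 and APOA1 on 0. Of the 4 tested, 0 passed the criterion in any comparison, and CoA minus Control was 1.35 for ALB, -1.25 for HP, -0.10 for TF and 0.22 for HPX. The summed signal of the 7 ranged from 36100 to 169000 in Control, 39600 to 94800 in CoA and 67400 to 224000 in Corrected. Whether the bright probe reads CYP7A1 alone was not tested.

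CYP39A1, a hydroxylase of oxysterols, was higher in both surgical groups at an unadjusted p under 0.05, though not by 2-fold. It averaged 8.25 ± 0.60 in Control, 9.07 ± 0.44 in CoA and 9.20 ± 0.35 in Corrected. The differences of 0.81 (SE 0.35, adjusted p = 0.336) and 0.94 (SE 0.38, adjusted p = 0.561) in limma rest on overlapping groups, and a second probe gave 0.72 and 0.89. CYP27A1, which oxidises the cholesterol side chain, averaged 6.23, 5.95 and 6.39. CYP8B1, which sets the type of bile acid made, averaged 3.49, 4.05 and 4.05. CYP19A1, the aromatase that makes estrogens, averaged 3.85 ± 0.38, 4.62 ± 0.59 and 4.62 ± 0.65, and its second probe was detected on 0 arrays.

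The FMO enzymes oxygenate nitrogen and sulfur in drugs and in trimethylamine. FMO1 read 13.44, 12.89, 13.42 and 13.43 in Control, 11.98, 12.09, 13.97 and 12.76 in CoA and 12.66, 11.18 and 12.12 in Corrected. All Corrected arrays lay below all Control arrays, while CoA replicate 3 was the highest array of all. Corrected was lower by 1.31 (SE 0.49, adjusted p = 0.543 in limma, exact permutation p = 0.057, the smallest possible), and on the shared scan by 2.08. It no longer passed without Corrected replicate 2, where the difference was -0.91, nor with Corrected replicate 3, at 13.13, included without array weights. With array weights over all 12 arrays it passed, at -1.32. CoA minus Control was -0.59 (95% interval -1.60 to 0.41). The 6 FMO1 probes all had differences below 0 in both comparisons, from -1.31 to -0.46 for Corrected, where the brightest alone passed the criterion.

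FMO4 was read by a single probe, at 9.23, 8.43, 8.84 and 8.94 in Control, 8.04, 6.96, 8.41 and 8.16 in CoA and 8.35, 7.79 and 7.28 in Corrected. Both surgical groups lay wholly below Control, though the highest CoA array, at 8.41, came close to the lowest Control array, at 8.43. Corrected was lower by 1.05 (SE 0.39, adjusted p = 0.538 in limma, exact permutation p = 0.057, the smallest possible), and by 1.08 on the shared scan. It was lost without Control replicate 1 or Corrected replicate 4, with -0.79 as the smallest difference. CoA was lower by 0.97 (SE 0.36, adjusted p = 0.299 in limma, exact permutation p = 0.029, the smallest possible), just short of 2-fold.

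FMO2, the lung form, averaged 7.11 ± 0.22, 7.81 ± 0.67 and 7.09 ± 0.27, and CoA minus Control was 0.70 (95% interval -0.03 to 1.42). FMO5 averaged 5.25, 4.94 and 4.91.

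Among the sulfotransferases, SULT3A1, which transfers sulfate to amines, differed most from Control. Its log2 signal was 5.89, 7.14, 8.02 and 8.33 on Control replicates 1 to 4, and 2.06, 2.89, 3.93 and 4.31 on CoA replicates 1 to 4. On Corrected replicates 1, 2 and 4 it was 8.96, 5.04 and 4.34. Every CoA array lay below every Control and every Corrected array, and Corrected replicate 1 lay above all others. However, CoA replicate 4, at 4.31, came close to Corrected replicate 4, at 4.34. The probe was well above background on all Control and Corrected arrays but on only 1 of 4 CoA arrays, so the CoA level is poorly measured.

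The means of SULT3A1 were 7.34 ± 1.09 in Control, 3.30 ± 1.02 in CoA and 6.11 ± 2.49 in Corrected. CoA was lower than Control by 4.05 with an SE of 0.95, or 16.5-fold by the fit, with an adjusted p of 0.218 in limma and an exact permutation p of 0.029, the smallest that 4 against 4 arrays allow. Since 3 of the CoA arrays were not well above background, the size is uncertain. It was -1.54 with the normexp background correction and lay between -4.54 and -1.54 over the alternatives. CoA was lower than Corrected by 2.82 (SE 1.02, adjusted p = 1.00 in limma, exact permutation p = 0.057, the smallest possible here). That difference did not pass without CoA replicate 1 or without Corrected replicate 1, and with each array left out in turn it lay between -3.70 and -1.40. Corrected against Control was -1.23 (95% interval -3.48 to 1.02).

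A second SULT3A1 probe read 5.98, 7.16, 8.42 and 8.45 in Control, 2.47, 2.59, 3.78 and 3.54 in CoA and 8.92, 4.99 and 3.94 in Corrected. It was well above background on 0 of 4 CoA arrays. Control was 13.7-fold higher when each CoA array counted at no less than its lowest signal well above background. This is an estimate without an error and not a strict lower limit. The second probe was detected on 7 arrays and is below the filter. Of 14 adipocyte markers 5 had a named probe and were tested, and 2 of these 5 were lower in CoA by the criterion, ADIPOQ (adiponectin) by 2.99 and PPARG (a nuclear receptor that drives fat cell formation) by 3.17. CoA minus Control was -1.49 for LPL, -1.05 for RBP4 and 0.17 for LEP (leptin), which did not pass. The summed linear signal of the 5 markers ranged from 21800 to 51400 in Control, 12700 to 31900 in CoA and 16100 to 66300 in Corrected, where the highest array was Corrected replicate 1. PPARG on that array was 9.72, within the Control range of 9.19 to 11.44. ADIPOQ itself was 6.01, 4.94, 7.44 and 7.64 in Control, 1.45, 3.35, 5.89 and 3.36 in CoA and 7.27, 4.72 and 4.06 in Corrected, and it was well above background on 8 of 12 arrays. Their part in the SULT3A1 result was not tested. In such bulk tissue, fewer cells of a type and less RNA per cell cannot be told apart.

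SULT4A1, a sulfotransferase-like protein best known from brain, is shown for its bright signal and not for a change. It read 10.80, 12.45, 12.001 and 11.68 in Control, 12.22, 13.35, 12.69 and 12.02 in CoA and 11.24, 11.86 and 12.98 in Corrected. The groups overlapped, and CoA minus Control was 0.84 (95% interval -0.19 to 1.87, adjusted p = 0.428 in limma). SULT2A1, which sulfates steroids and bile acids, averaged 8.52 ± 0.54 in Control, 9.38 ± 1.33 in CoA and 9.91 ± 0.78 in Corrected. Its 5 probes all gave positive differences for Corrected against Control, from 0.78 to 1.46, and that of the brightest was 1.39 with an adjusted p of 0.615 in limma. SULT2B1, a cholesterol sulfotransferase, ranged from 4.42 to 8.62 within the Control group alone, and its means of 6.40, 5.67 and 5.58 in Control, CoA and Corrected lay within that spread. SULT1C2 was below the filter, at 2.77, 3.34 and 3.15.

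**Figure D4:**
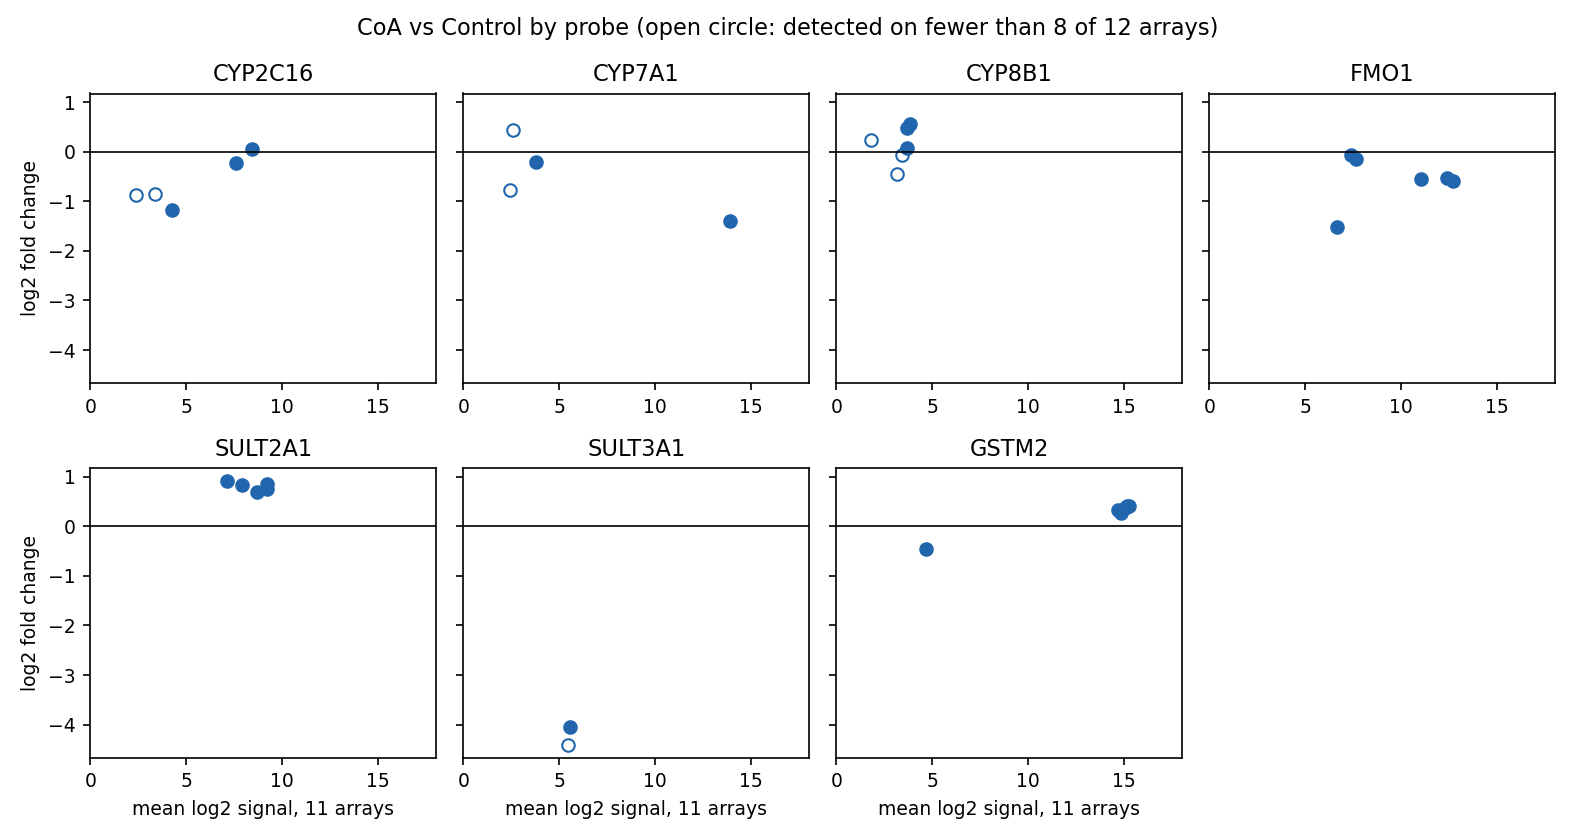
CoA minus Control on the log2 scale (y axis) against mean log2 signal over 11 arrays (x axis) for each probe of 7 genes, a panel each; open circles are probes detected on fewer than 8 of 12 arrays. All probes of SULT2A1 lie above 0 and both of SULT3A1 near -4 (CoA at or near background), while CYP7A1 has a single bright probe at -1.40 and GSTM2 has 1 probe at low signal.

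The other conjugating enzymes did not pass the criterion. UGT1-6, which glucuronidates small phenols, read 7.05, 6.65, 8.01 and 8.02 in Control, 6.73, 7.35, 7.34 and 7.05 in CoA and 7.30, 6.67 and 7.01 in Corrected. The groups overlapped, with CoA minus Control at -0.32 (95% interval -1.08 to 0.44). Its second probe gave -1.55 in the same comparison, fitted without the detection filter, where CoA replicate 2 read 4.31. UGT2B13 averaged 4.07, 3.57 and 4.37, and CoA was lower than Corrected by 0.80 (SE 0.30, adjusted p = 1.00 in limma), though it was well above background on only 1 of 4 CoA arrays. Its second probe, detected on 8 arrays, gave 0.08 for CoA against Corrected, and 0.74 for CoA against Control where the first gave -0.50, so the direction depends on the probe. UGT2B14 averaged 1.32, 2.18 and 1.83 and UGT2B16 2.54, 3.91 and 2.29 below the filter.

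GSTM2, a glutathione transferase of the mu class, read 14.89, 14.58, 15.37 and 15.31 in Control, 15.76, 15.05, 15.62 and 15.38 in CoA and 15.27, 15.08 and 15.30 in Corrected. The groups overlapped, and CoA minus Control was 0.41 (95% interval -0.16 to 0.99, adjusted p = 0.476 in limma). Of its 6 probes 5 gave positive differences, and the sixth, with a mean of 4.67, gave -0.46. NAT10 enters by its name alone, since it acetylates RNA and not drugs. It read 8.47, 7.58, 8.16 and 8.25 in Control, 7.96, 7.98, 7.82 and 8.66 in CoA and 8.37, 7.64 and 10.15 in Corrected, where replicate 4 was far above the rest. Its mean differences were -0.01 for CoA and 0.61 for Corrected.

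Other steps of the pathway were read from lists that hold no member. Of 40 phase I enzymes outside these families 13 had a named probe and 12 were tested, and in CoA 4 were lower and 1 higher by the 2-fold criterion, which 5.22% and 3.59% of all probes met. The lower ones were ADH1A (alcohol dehydrogenase, -1.61), EPHX1 (microsomal epoxide hydrolase, -1.54), CBR1 (carbonyl reductase, -2.41) and AKR1B1 (aldose reductase, -1.20), and the higher one was PTGS2 (cyclooxygenase-2, 1.00). In Corrected ADH1A (-1.63) and CBR1 (-2.08) were lower and PTGS2 (1.03) higher, against 2.98% and 2.41% of all probes. The median of the list was -0.26 for CoA and -0.39 for Corrected, against 0.06 and 0.03 over all probes. ADH1A separated Control from the surgical arrays except for CoA replicate 2, with 15.02 to 15.78 in Control, 13.03 to 15.32 in CoA and 13.41 to 14.38 in Corrected. CoA and Corrected overlapped. With adjustment in limma 0 genes of any list passed in any comparison.

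Of 14 methyl and amino acid conjugation enzymes 2 were tested, TPMT and INMT. INMT, which methylates tryptamine and other amines, was higher in both surgical groups by the criterion. It read 11.20, 13.34, 12.002 and 11.18 in Control, 15.45, 14.37, 14.86 and 14.40 in CoA and 14.31, 15.06 and 15.13 in Corrected. All surgical arrays lay above all Control arrays, and the mean differences were 2.84 for CoA (SE 0.48, adjusted p = 0.217 in limma) and 2.90 for Corrected (SE 0.51, adjusted p = 0.240 in limma).

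The supporting genes mostly overlapped between the groups. POR, the reductase that passes electrons to microsomal P450, averaged 13.45, 13.58 and 13.54, and 0 of the 4 redox partners tested passed, with medians of -0.20 for CoA and -0.05 for Corrected. The 5 tested genes of glutathione supply had 0 past the criterion and medians of -0.23 and -0.31. Among 7 tested receptors and regulators, PPARG alone passed, at -3.17 in CoA and -2.29 in Corrected. AHR, the receptor for dioxin-like compounds, averaged 5.11, 4.74 and 5.10, NR1I2, the pregnane X receptor, 4.59, 4.96 and 4.76, and NFE2L2, the oxidative stress regulator NRF2, 12.69, 12.52 and 12.79. Of the 8 transporters tested 0 passed, with medians of 0.14 and 0.20. CoA and Corrected differed by the criterion in 0 genes of these 6 lists.

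**Figure D5:**
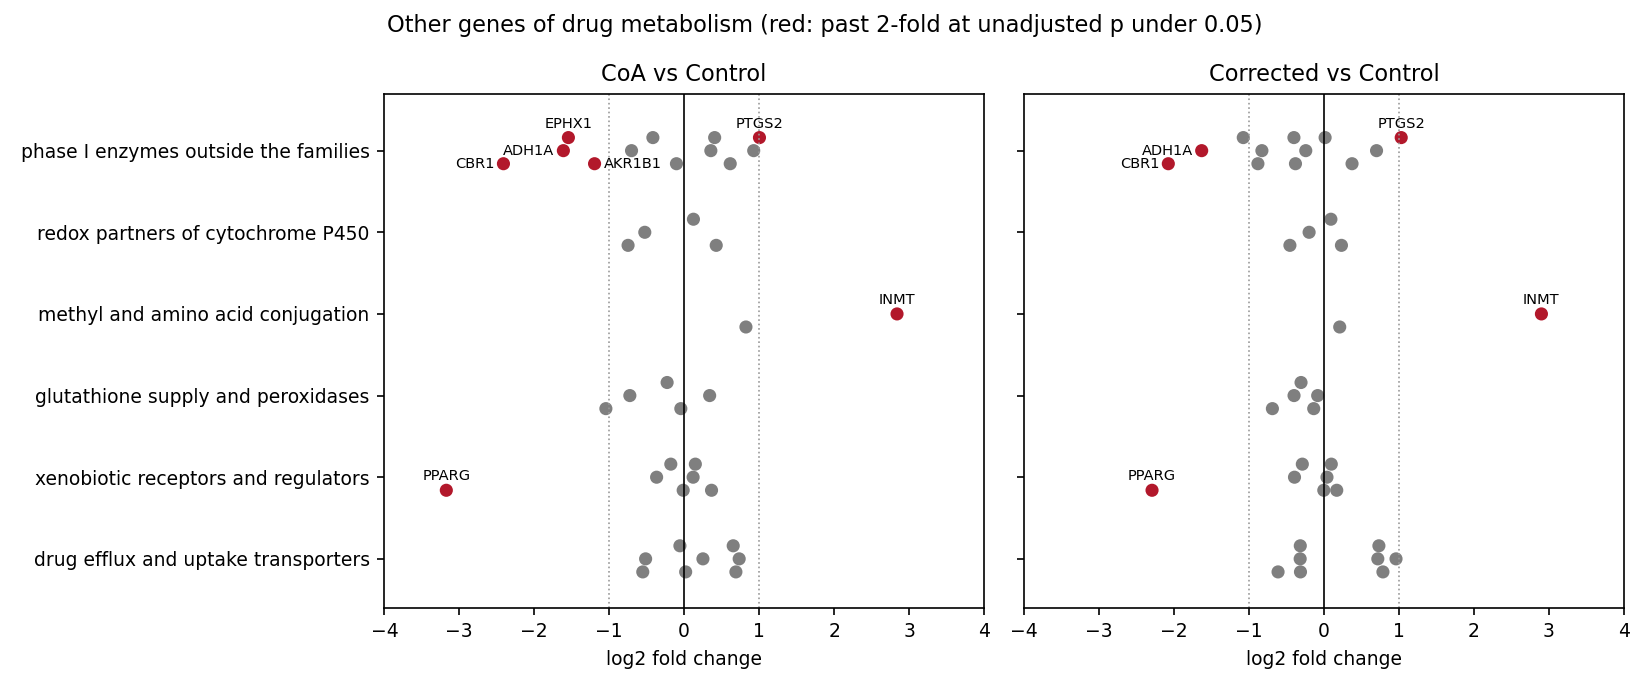
Log2 fold change (x axis) of the tested genes in 6 lists of drug metabolism genes outside the member families, for CoA vs Control (left) and Corrected vs Control (right); each point is a gene, dotted lines mark 2-fold, and red points with names passed 2-fold at an unadjusted p under 0.05. INMT is at 2.84 and 2.90, PPARG at -3.17 and -2.29, and transporters, redox partners and glutathione genes hold no red point.

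Markers of other cells were checked beside these results. Both erythroid markers with a probe, HBA and HBB2, were lower in CoA by the criterion, at -3.37 and -1.46, and their summed signal was 319000 to 475000 in Control, 32700 to 245000 in CoA and 230000 to 403000 in Corrected. The brown fat marker UCP1 was detected on 7 of 12 arrays and averaged 6.18 in Control, 3.10 in CoA and 3.69 in Corrected. Of lung epithelium markers, SFTPA1 read 16.13 to 16.79 on all arrays while SFTPC was detected on 0, and 0 of the 3 tested passed. Of the 5 smooth muscle and 6 endothelial markers tested, TPM2 alone passed, in Corrected, where it was higher by 1.30. By the criterion NPY of nerve, TNNC2 of skeletal muscle, RAG2 of immature lymphocytes and SPP1 of macrophages were higher in CoA. In Corrected these were NPY, TNNC2, MYH1 of skeletal muscle and SPP1. These single genes do not speak for their lists. RAG2 was the 1 tested of 5 T cell and thymus markers with a probe. Below the filter, CoA minus Control was -2.46 for CD3E, -2.19 for CD247, 0.29 for CD4 and 0.37 for CD28. In CoA, TNNC2 alone passed of 7 tested skeletal muscle markers, whose median was -0.31, and SPP1 alone of 7 macrophage markers. Of the 4 fibroblast markers 0 passed. Their part in the enzyme results was not tested.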

How the data were processed

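Total RNA of 12 rabbit aortas was hybridized to 1-colour Agilent arrays. The deposited intensities are processed signals per spot, from which Feature Extraction 11.0.1.1 had subtracted the background, with median signals and quality flags beside them; no other normalization had been applied, per the file headers. Here log2 processed signals of non-control spots, with spots flagged as outliers set to missing, were quantile normalized over 12 arrays and then averaged per probe. Probes well above background on at least 8 of 12 arrays were kept, 27283 in all. limma 3.58.1 in R 4.3.3 compared the 3 groups on 11 arrays with no covariates, and p-values were adjusted by Benjamini-Hochberg over all probes. The methods consulted name a fold change and p under 0.05 but no test, and limma was used. Exact permutation tests were two-sided. The number of rabbits limits the precision.

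Genes were named by matching RefSeq accessions, without versions, to RefSeq's table of the mOryCun1.1 assembly. Of 43603 probes 4511 carried such an accession and 3368 obtained a symbol. The array files name build oryCun2, so no coordinates are given. The brightest probe stood for a gene. Values on every array are given for genes past 2-fold at an unadjusted p under 0.05 in any comparison and for the brightest detected gene of each of 6 families; the other members are given by means, ranges or detection. Some genes that these rules name are not reported here, though counts include them. CYP2J2 and CYP4B1 were added after their values were seen. Members and lists were chosen with earlier results of these data known. Alternatives covered the normalization, background correction, detection filter, arrays used, blocks, probe choice and single arrays left out. Slide labels were not used here, and arrays sharing a scan time stood in for slides.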

Additional observations from a re-analysis of the deposited data

Results flagged for a closer look

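In 62 groups of 4 arrays (31 genes in Control and in CoA), the most extreme array was compared with its nearest neighbour, and 2 groups had a gap above Dixon's 95% critical value; chance flags about 1 in 20 groups. FMO1 was 12.89 on Control replicate 2, against 13.42 to 13.44 on the other Control arrays, a gap of 0.962 of the range. CYP4A7 was 6.59 on CoA replicate 2, with 5.28 as the next CoA value and a gap of 0.835 of the range.

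Corrected replicate 3 entered no comparison, and 45.6% of its spots were well above background, the lowest share of the 12 arrays. On this array 8 of 31 genes, or 25.8%, were detected more than 1 log2 unit above every Control array, against 24.1% of all probes tested. They were CYP2C16 at 10.60, CYP2D23 at 10.10, CYP2G1 at 7.05, CYP3A6 at 9.97, CYP4A5 at 12.21, CYP4A7 at 6.82, CYP4B1 at 10.02 and SULT2A1 at 11.02. The excess over the highest Control array ran from 1.41 for CYP4B1 to 2.59 for CYP4A5. Another 2 genes, or 6.45%, were more than 1 unit below every Control array, against 25.7% of all probes: FMO4 at 5.32 and FMO5 at 1.52. The part of the low array quality in these values was not tested.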

How the results depend on the processing

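Counts of genes past 2-fold at an unadjusted p under 0.05 were 3 in CoA against Control, 4 in Corrected against Control and 1 between CoA and Corrected, and no gene passed adjustment. Array weights over all 12 arrays gave 7, 8 and 2, with 10 genes past adjustment for CoA vs Control. Detection on all 12 arrays, which tested 23 genes, gave 1, 2 and 0. Normexp on the median signal gave 2 for Corrected and 0 for CoA vs Corrected, and the latter was 2 without a filter, with all 12 arrays, and without CoA replicate 2 and Corrected replicate 4, an alternative chosen after seeing the data. Corrected vs Control fell to 2 with Control replicates 3 and 4 as 1 sample or the mean of all probes, and to 1 (FMO1) with scan as a fixed block. Scan as a fixed block could not be fitted for CoA. As a random block, with an estimated correlation within scans of -0.15, it passed 2 genes after adjustment for CoA vs Control. They were CYP7A1 (adjusted p = 0.0312 in limma) and SULT3A1 (adjusted p = 0.0334 in limma). All CoA arrays share a scan, so this block cannot separate scan from CoA. With the negative correlation the SE was 0.24 rather than 0.32 for CYP7A1 and 0.72 rather than 0.95 for SULT3A1. Pairing by replicate number was checked. Same-numbered arrays of different groups correlated from -0.45 to 0.45 in their deviations over 10 pairs. Arrays with other numbers ranged from -0.54 to 0.44. With so few pairs this cannot exclude a pairing, and the replicate block gave 3, 1 and 1.

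With each array left out in turn the counts ranged from 2 to 7, 2 to 5 and 0 to 3. CoA vs Control reached 7 without CoA replicate 3 and 6 without Control replicate 2. Corrected vs Control fell to 2 without Control replicate 3 or Corrected replicate 4. CoA vs Corrected was 0 without CoA replicate 1 or Corrected replicate 1, 3 without CoA replicate 2 or CoA replicate 4, and 2 without Corrected replicate 2 or Corrected replicate 4. None passed adjustment. SULT3A1 passed in 23 of 23 alternatives for CoA vs Control, from -4.54 to -1.54, with adjusted p from 0.000381 to 0.615. CYP7A1 passed in 22 of 24, from -1.57 to -0.48, the exceptions being 75th percentile scaling and the mean of all probes. The direction turned for CYP2C16 on the third probe by signal (-1.17) and for CYP7A1 on the third probe, below the filter (0.44). For UGT2B13 the second probe gave 0.74 where the first gave -0.50. The causes were not tested.

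Of 146 counts under alternatives 119 equalled the main count or lay within 1.5 times of it, 14 were higher and 13 lower. The 146 include the counts past adjustment, most of which were 0 in the main fit and in the alternative. The 119 therefore overstate how stable the 2-fold counts were. Of all probes 2404, 1471 and 755 passed. Scaling to the 75th percentile moved the median of CoA minus Control across probes from 0.06 to 0.22, and 18 rather than 16 genes lay above 0. Signals near background limit SULT3A1 and UGT2B13 in CoA.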
